A study of Mus musculus with 24 samples.

Results

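Dmrt2, Hmx2 and Hmx3 are the 3 transcription factor genes that were targeted in the mice of this study, and they are described here in every library and in each other's knockouts. They were taken by symbol from the 54393 genes of each count table, and all 3 were listed in all 4 tables. Bulk RNA sequencing of whole kidneys from mice at embryonic day 18.5 gave 24 libraries. The libraries labelled Dmrt2 KO (n = 3) were set against controls of the Dmrt2 line (n = 3), those labelled Hmx3; Hmx2 KO (n = 6) against controls of their own line (n = 6), and those labelled Dmrt2; Hmx3; Hmx2 KO, called triple knockout below (n = 3), against controls of that line (n = 3). Controls were littermates, per the series' design text. The labels give neither the alleles nor the exons they remove, and name no Cre driver, treatment or sex. Whether the libraries of a group are different embryos is not stated either, so each p-value speaks for the scatter of these libraries, some of which may be technical.

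DMRT2 belongs to the DM-domain family, zinc-binding transcription factors named after the Drosophila doublesex and C. elegans mab-3 genes. In the mouse it is known for its role in the somites, from which muscle and the axial skeleton form. HMX2 and HMX3 are homeodomain transcription factors encoded by neighbouring genes, and are known in the mouse for overlapping roles in the inner ear and the hypothalamus. The intercalated cells of the renal collecting duct, in which the study places these factors, secrete acid (type A) or bicarbonate (type B, with the related non-A non-B cells), and all need the forkhead factor FOXI1. Each comparison asks how the transcripts of these factors differ when one or more of them is targeted.

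On build mm39 the deposited gene model of Dmrt2 lay on the plus strand of chromosome 19 (25649775 to 25656355) with 4 exon blocks and 2337 exon bases. Hmx3 (chromosome 7, 131144596 to 131146654) had 2 exon blocks and 1457 exon bases, and Hmx2 (131150502 to 131159743) had 3 blocks and 3216 bases. Both lay on the plus strand, with 3847 bases between the end of Hmx3 and the start of Hmx2. The only annotated gene whose span overlapped them was Fgfr2, a fibroblast growth factor receptor gene on the minus strand, and none of its exons touched theirs. The transcripts of Hmx2 and Hmx3 shared no identical stretch longer than 39 bases with any other family member, and those of Dmrt2 none longer than 17, against reads of 150 bases.

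The stretches of 250 bases before the RefSeq transcript starts are shown because the results below concern the transcript levels of these genes in each other's knockouts. They come from RefSeq on GRCm38.p6, an earlier build than that of the counts, and all 3 genes matched by symbol, Hmx2 with 2 annotated starts. The sequences run 5′ to 3′ on the plus strand. Capitals mark the letters CCAAT (on either strand, so ATTGG as well) and TATAAA, general promoter elements.
Dmrt2, chr19:25672161-25672410: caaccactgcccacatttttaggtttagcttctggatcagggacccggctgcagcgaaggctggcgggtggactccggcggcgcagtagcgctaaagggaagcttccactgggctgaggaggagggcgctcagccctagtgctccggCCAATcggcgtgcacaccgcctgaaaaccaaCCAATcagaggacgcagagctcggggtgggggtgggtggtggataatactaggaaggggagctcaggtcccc
Hmx2, first start, chr7:131548507-131548756: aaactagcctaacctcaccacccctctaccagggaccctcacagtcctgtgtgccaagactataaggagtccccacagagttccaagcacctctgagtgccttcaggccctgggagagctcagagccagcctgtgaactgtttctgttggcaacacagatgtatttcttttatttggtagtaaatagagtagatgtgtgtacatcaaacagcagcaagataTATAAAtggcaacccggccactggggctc
Hmx2, second start, chr7:131554043-131554292: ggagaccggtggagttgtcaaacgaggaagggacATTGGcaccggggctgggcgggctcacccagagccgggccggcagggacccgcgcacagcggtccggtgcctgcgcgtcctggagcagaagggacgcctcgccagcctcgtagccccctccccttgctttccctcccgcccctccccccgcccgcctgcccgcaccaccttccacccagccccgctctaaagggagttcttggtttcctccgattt
Hmx3, chr7:131542713-131542962: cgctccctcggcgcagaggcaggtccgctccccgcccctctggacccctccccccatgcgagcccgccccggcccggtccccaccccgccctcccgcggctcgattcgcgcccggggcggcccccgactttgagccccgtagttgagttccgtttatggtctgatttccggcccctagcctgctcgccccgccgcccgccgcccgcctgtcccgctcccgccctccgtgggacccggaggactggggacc

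Dmrt2 held CCAAT at positions -103 and -72, counted from the first base of the motif to the transcript start. The first Hmx2 start was preceded by TATAAA at position -29, and the second by ATTGG at position -216. No capitals fell in the Hmx3 stretch. Among 32536 mouse promoter stretches of the same length, 33.8% held CCAAT and 12.3% held TATAAA on either strand. These 2 motifs were added after the sequences had been seen. The core letters of HMX sites (CAAGTG, found in 11.5% of all the stretches) and of DMRT sites (ACATTGT, 2.54%), searched on both strands, were in none of the 4, which says only that these letters are not in these windows. The G and C share was 62.4% for Dmrt2, 49.6% for the first Hmx2 start, higher for the second, and 76.8% for Hmx3, against a median of 52.4% over all the stretches.

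Libraries held 52286824 to 127339273 counted reads. A gene with no reads was kept at 0 CPM, where CPM puts the counts of every library on the same total. A floor of 3 reads stood in for a group without reads only where a pooled fold is given as a lower bound. In a single library 3 reads are 0.0236 to 0.0574 CPM, depending on its depth. The 11 kidney marker genes examined summed to 2926 to 4467 CPM, while 6 adrenal genes summed to 5.03 to 7.14 CPM, 6 gonadal or germ cell genes to 0.574 to 1.46 CPM and 6 skeletal muscle genes to 1.01 to 4.52 CPM. Libraries with Y-linked transcripts numbered 1 of 3 Dmrt2 knockouts against 3 of 3 controls, 2 of 6 Hmx3; Hmx2 knockouts against 4 of 6 controls, and 2 of 3 triple knockouts against 2 of 3 controls. In whole tissue, fewer cells of a type and less RNA per cell cannot be told apart.

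In control kidneys the 3 genes stood at very different levels. Per kilobase of exon, Dmrt2 averaged 5.86, 3.86 and 4.87 CPM per kb in the controls of the Dmrt2, Hmx3; Hmx2 and triple lines. Hmx2 averaged 1.26, 0.601 and 0.829 CPM per kb in the same groups, and Hmx3 averaged 0.134, 0.0598 and 0.0632. Of the genes detected in the controls, 69.8% to 73.1% stood below Dmrt2, 53.9% to 56.4% below Hmx2 and 29.5% to 35.1% below Hmx3. Hmx3 had only 2 to 28 reads in a control library.

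**Figure D1:**
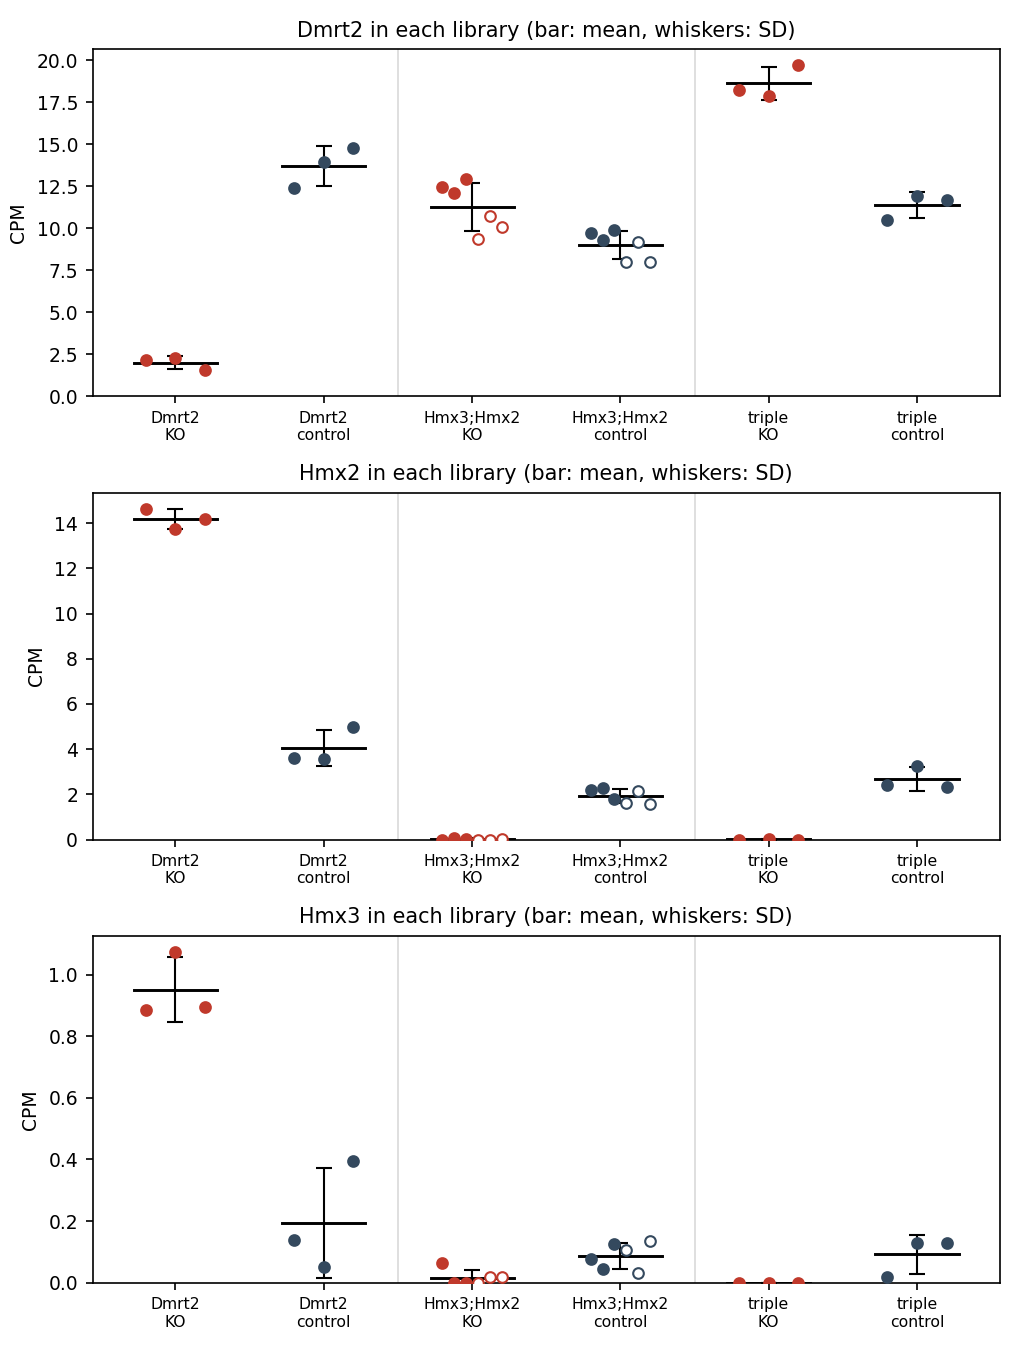
CPM of Dmrt2, Hmx2 and Hmx3 in each of the 24 libraries, with each knockout left of its controls (points, libraries; open points, replicates 4 to 6 of the Hmx3; Hmx2 line, deposited in a table of their own; bars, mean; whiskers, SD). Hmx2 stands at 13.7 to 14.6 CPM in Dmrt2 knockouts and at 3.56 to 4.99 CPM in their controls, and Dmrt2 at 17.9 to 19.8 CPM in libraries labelled triple knockout and at 10.5 to 11.95 CPM in theirs.

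In the Dmrt2 knockouts the targeted gene itself was low but still counted. Dmrt2 had 2.19, 2.26 and 1.57 CPM (148, 139 and 200 reads) in Dmrt2 knockouts, against 12.4, 13.9 and 14.8 CPM (891, 1085 and 1050 reads) in controls. The groups did not overlap, as was so for 7.42% of all tested genes in this direction, and 13.9% of the control level remained in pooled reads. The gene fell by 2.79 ± 0.15 (SE) on the log2 scale, with an adjusted p of 1.4e-06 (edgeR quasi-likelihood test, Benjamini-Hochberg over 19807 genes). In this comparison 88 genes were called, meaning an adjusted p under 0.05, which is 0.444% of those tested, and 0.257% were called lower. Which exons the remaining reads cover is not given by the counts, since they are summed over the gene.

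Hmx2 was several times higher in the Dmrt2 knockouts. It had 14.6, 13.7 and 14.2 CPM (990, 846 and 1807 reads) in Dmrt2 knockouts, against 3.62, 3.56 and 4.99 CPM (260, 277 and 355 reads) in controls. Every knockout library stood above every control, as for 10.7% of tested genes in this direction, and the knockout libraries lay closer to each other (SD 0.443 CPM) than the controls did (SD 0.812 CPM). Hmx2 rose by 1.80 ± 0.14 (SE) on the log2 scale, which is 3.48-fold with an interval of 2.89 to 4.19 (95%, from the SE), and its adjusted p was 3.0e-05. Among the 37 genes called higher, 0.187% of those tested, Hmx2 had the fifth largest log2 fold change. A permutation test of the CPM alone gave p = 0.10 (exact, two-sided), the smallest value that 3 against 3 libraries allow.

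Hmx3, the neighbour of Hmx2, also stood higher, on far fewer reads. It had 0.887, 1.07 and 0.895 CPM (60 and 66 reads in replicates 1 and 2, more in the deeper replicate 3) in Dmrt2 knockouts, against 0.139, 0.0513 and 0.394 CPM (10, 4 and 28 reads) in controls. The groups did not overlap, as for 10.7% of tested genes in this direction, but the controls spread widely, with replicate 3 highest. In pooled CPM the ratio was 4.92. The log2 fold change of 2.28 ± 0.52 (SE) did not pass the threshold (edgeR adjusted p = 0.098). It passed with DESeq2 (adjusted p = 0.0018), where 2.17% of tested genes were called. In edgeR it passed without a filter on low counts (adjusted p = 9.2e-07), where 2.1% of genes were called. Without control replicate 3 it passed as well (log2 fold change 3.31, edgeR adjusted p = 0.011). It did not pass in edgeR with a Y-linked covariate (adjusted p = 0.75), a replicate block (0.12) or a single fit of the 24 libraries (0.14). Nor did it pass with any other library left out, and without knockout replicate 2 its edgeR adjusted p was 0.47.

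The balance between both neighbours was examined as the share of Hmx3 in the reads of Hmx2 and Hmx3 together. It was 5.71% to 7.24% in the 3 Dmrt2 knockouts and 1.42% to 7.31% in their 3 controls, so the ranges overlapped. Pooled, it was 6.18% (exact binomial 95% interval 5.44 to 6.98) in knockouts and 4.50% (3.26 to 6.03) in controls. The intervals overlapped, and they cover counting error only. Control replicate 3 holds 28 of the 42 Hmx3 reads of the controls. Without it their pooled share was 2.54% (1.396 to 4.226), an interval below that of the knockouts. Without control replicate 1 it was 4.82% (3.32 to 6.74), and without control replicate 2 it was 5.82% (4.15 to 7.90). Both of these intervals overlapped that of the knockouts, so the reading depends on which control is left out. Per base of exon, Hmx2 was counted 6.88 times as often as Hmx3 in the Dmrt2 knockouts and 9.62 times as often in controls. In controls this was 17.4 times without control replicate 3 and 7.33 times without control replicate 2.

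**Figure D2:**
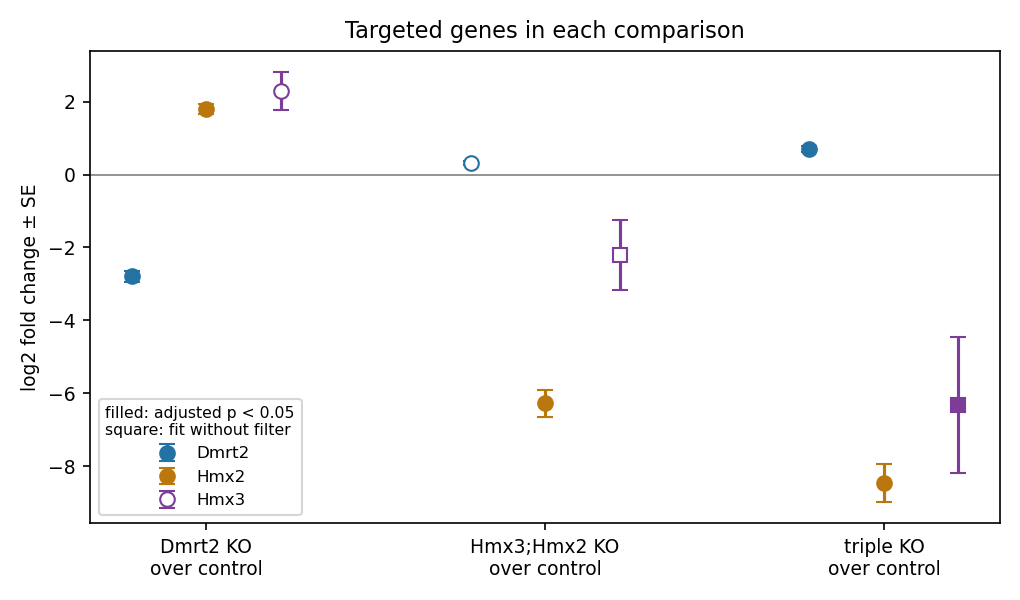
Log2 fold change of each targeted gene, knockout over control of the same line, with its SE (edgeR; filled symbols, adjusted p under 0.05; squares, values from the fit without a filter on low counts, where the gene did not pass it). Dmrt2 lies at -2.79 in Dmrt2 knockouts, 0.32 in Hmx3; Hmx2 knockouts and 0.69 in libraries labelled triple knockout, and Hmx2 at 1.80, -6.28 and -8.45.

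In the Hmx3; Hmx2 knockouts nearly all Hmx2 reads were gone. Hmx2 had 0, 4, 2, 0, 0 and 2 reads in the 6 knockouts, at most 0.0606 CPM, against 2.19, 2.27, 1.80, 1.62, 2.13 and 1.57 CPM (90 to 208 reads) in controls. Every control was far above every knockout, as for 0.346% of tested genes lower in both deposited tables, and pooled CPM was 84.9-fold lower in the knockouts. Hmx2 fell by 6.28 ± 0.37 (SE) on the log2 scale (edgeR adjusted p = 1.3e-07), and by 5.99 to 6.86 with a library left out. It was the gene with the smallest p of 19050 tested, of which 4 (0.021%) were called, 0.0157% lower and 0.00525% higher.

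Hmx3 in the same knockouts was at the limit of detection. It had 4, 0, 0, 0, 1 and 1 reads in knockouts, against 6, 4, 8, 6, 2 and 8 reads in controls. The ranges in CPM overlapped (0 to 0.0642 in knockouts, 0.0328 to 0.137 in controls), and the gene did not pass the filter on low counts. Without that filter its log2 fold change was -2.21 ± 0.96 (SE) and was not called (edgeR adjusted p = 0.83), where 0.0117% of 34122 genes were. It was -3.38 without knockout replicate 1, which holds 4 of the 6 knockout reads, and was not called there either. The mean difference of -0.0700 CPM gave p = 0.02 in a permutation within both deposited tables (exact, two-sided, 400 arrangements, smallest possible 0.005).

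Dmrt2 stood slightly higher in the Hmx3; Hmx2 knockouts, by a margin that did not pass correction over all genes. In replicates 1 to 3 it had 12.5, 12.1 and 12.97 CPM in knockouts, against 9.72, 9.33 and 9.93 CPM in controls. In replicates 4 to 6, deposited in a second table, it had 9.38, 10.7 and 10.1 CPM in knockouts, against 7.98, 9.18 and 7.97 CPM in controls. Within each table all 3 knockouts were above all 3 controls, although the ranges overlapped when both tables were put together.

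The log2 fold change of Dmrt2 in this comparison was 0.32 ± 0.06 (SE), which is 1.25-fold with an interval of 1.15 to 1.36, and its edgeR adjusted p was 0.185. It was 0.38 in replicates 1 to 3 alone and 0.27 in replicates 4 to 6 alone. The unadjusted p of 4.9e-05 was the fifth smallest of 19050, and 24 genes (0.126%) were higher without overlap in both tables, as Dmrt2 was. A permutation of CPM within tables gave p = 0.005 (exact, two-sided), the smallest possible. DESeq2 called it (adjusted p = 7.0e-04), as 0.0262% of tested genes. Across the alternatives without a library left out the adjusted p ran from 7.0e-04 to 1.0, and across those that left out a library from 0.056 to 0.83.

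In the libraries labelled triple knockout the Hmx genes were at or near 0 reads but Dmrt2 was not lower. Hmx2 had 0, 2 and 0 reads in these libraries, against 266, 354 and 252 reads in controls. The groups did not overlap, as for 8.92% of tested genes in this direction, with a ratio of 407.3 in pooled CPM (112.7 to 3363, from the exact Poisson interval of the 2 reads, counting error only). Hmx2 fell by 8.45 ± 0.52 (SE) on the log2 scale (edgeR adjusted p = 6.8e-05), in a comparison with 222 called genes (1.03% of 21537, and 0.446% lower). Without knockout replicate 2, the only one with Hmx2 reads, the fitted log2 fold change was -11.18, and over the other 5 fits that left out a library it was -8.55 to -7.87. Fitted values for a group this near 0 depend on the prior count and are no bounds. Hmx3 had 0 reads in all 3, against 2, 14 and 14 reads in controls, so that, with 3 reads as the floor for the group as a whole, it was at least 9.34-fold lower in pooled CPM. Hmx3 did not pass the filter. Without a filter it was called (edgeR adjusted p = 0.022), as were 4.46% of 33852 genes. That call ended in 5 of the 6 fits that left out 1 library, all but the one without control replicate 1, with adjusted p between 0.064 and 0.185.

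Dmrt2 had 18.2, 17.9 and 19.8 CPM (1801, 1683 and 2233 reads) in libraries labelled triple knockout, against 10.5, 11.95 and 11.7 CPM (1158, 1293 and 1270 reads) in controls. All 3 stood above all controls, as for 14.2% of tested genes in this direction, and the label's Dmrt2 part was thus not matched by fewer reads of the gene. The log2 fold change was 0.69 ± 0.08 (SE), which is 1.61-fold with an interval of 1.44 to 1.80 (edgeR adjusted p = 0.0042). It ranked 41st by size among the 126 genes called higher (0.585%), and without knockout replicate 3 its adjusted p was 0.0502. Of the 7 listed genes of bicarbonate-secreting intercalated cells, 3 were also called higher in these libraries (Slc26a4, Slc4a9 and Insrr), against 0.585% of all tested genes, and 0 lower. Log2 fold changes of the 7 ran from -0.74 to 1.12, with a median of 0.77, against a median of 0.00 over all tested genes. DESeq2 called 5 in either direction (Sh2d4b and Spink8 as well), against 5.04% of all genes. An unadjusted p under 0.05 was reached by 6 in edgeR, against 17.9%. The 7 summed to 171.7 to 205.8 CPM in libraries labelled triple knockout and 107.3 to 121.7 CPM in controls. Their part in the Dmrt2 result was not tested.

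Set against each other in a single fit of the 24 libraries, each effect relative to controls of its own table, the Dmrt2 effect of the libraries labelled triple knockout was 3.48 ± 0.15 (SE) higher on the log2 scale than that of the Dmrt2 knockouts (edgeR adjusted p = 1.5e-14, where 0.394% of 22101 genes were called). Against the Hmx3; Hmx2 knockouts it was 0.36 ± 0.12 higher (interval 0.11 to 0.60), which did not pass correction (adjusted p = 0.18, where 0.968% of genes were called). For Hmx2 the triple effect was -2.09 ± 0.96 relative to the Hmx3; Hmx2 effect (adjusted p = 0.35), and for Hmx3 it was -3.68 ± 1.76 (adjusted p = 0.37). Both rest on groups with 0 to 4 reads per library. With a library left out, the Hmx2 difference was between -4.40 (without triple knockout replicate 2) and -1.49 (without Hmx3; Hmx2 knockout replicate 2) and was never called. The difference for Dmrt2 between the libraries labelled triple knockout and the Dmrt2 knockouts was positive in each of the 24 fits that left out a library, at 3.32 to 3.58.

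Ordered by mean CPM over the groups, with both tables of the Hmx3; Hmx2 line apart, Dmrt2 was highest in libraries labelled triple knockout (18.6 ± 0.984, SD, n = 3) and lowest in Dmrt2 knockouts (2.01 ± 0.378), and neither range overlapped its neighbour. Between them, controls of the Dmrt2 line (13.7 ± 1.20) overlapped Hmx3; Hmx2 knockouts 1 to 3 (12.5 ± 0.442). Controls of the triple line (11.4 ± 0.779) overlapped Hmx3; Hmx2 knockouts 4 to 6 (10.05 ± 0.665), which overlapped Hmx3; Hmx2 controls 1 to 3 (9.66 ± 0.304). Hmx2 was highest in Dmrt2 knockouts (14.2 ± 0.443), above the controls of the Dmrt2 line (4.06 ± 0.812), the triple line (2.67 ± 0.527) and the Hmx3; Hmx2 line (2.09 ± 0.251 in replicates 1 to 3 and 1.77 ± 0.310 in replicates 4 to 6). The knockouts of the Hmx genes came last. Levels set across lines also differ in table and mouse line.

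**Figure D3:**
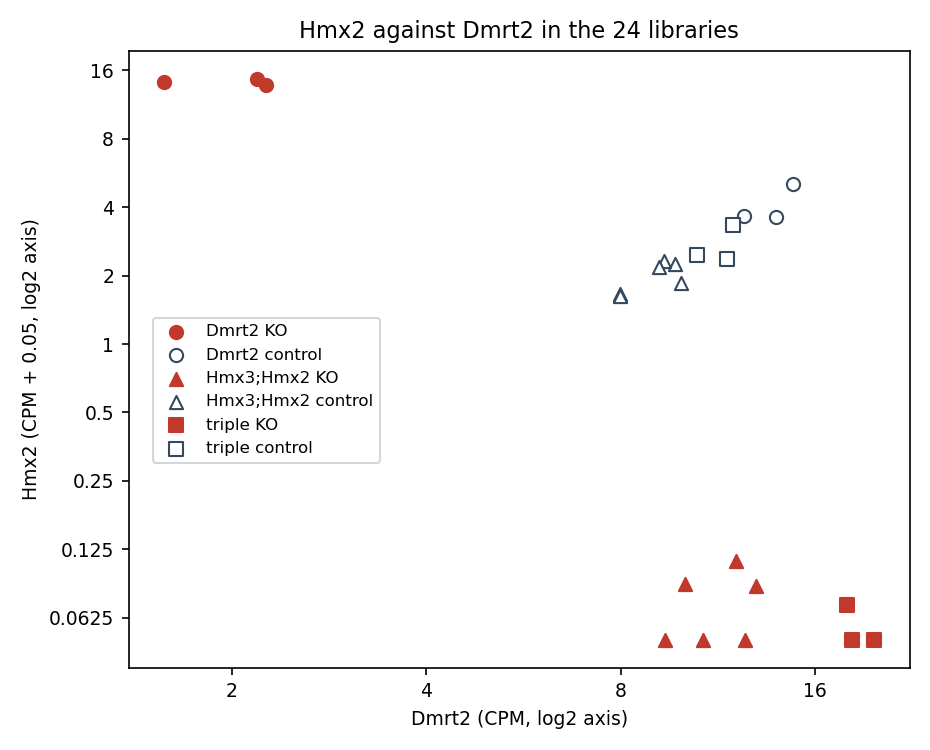
Hmx2 (CPM + 0.05) against Dmrt2 (CPM) in the 24 libraries, both on log2 axes (filled, knockout; open, control; circles, Dmrt2 line; triangles, Hmx3; Hmx2 line; squares, triple line). Dmrt2 knockouts lie at the upper left and the knockouts of the Hmx genes, with 0 to 4 Hmx2 reads each, at the lower right, where those labelled triple knockout have the most Dmrt2, at 17.9 to 19.8 CPM.

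Among the controls, no negative relation between Dmrt2 and Hmx2 was seen. Over 12 control libraries, each centred on the mean of its table, Pearson's r was 0.62 (permutation p = 0.13, two-sided) and Spearman's rho 0.36 (permutation p = 0.33), and r was 0.58 without the 2 libraries farthest from the median in Dmrt2. A single relation was computed, so no adjustment was made. Alternatives gave r between 0.47 and 0.75, and none passed the threshold.

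The reads of the members were also set against those of genes of the intercalated cells, a choice made after the data had been seen. Such a ratio moves with either gene and does not place a member within these cells. Foxi1, which encodes the forkhead factor common to these cells, averaged 34.8 ± 1.91 CPM in Dmrt2 knockouts and 41.6 ± 3.49 CPM in controls (SD, n = 3 each; log2 fold change -0.27, edgeR adjusted p = 0.16). Per 100 Foxi1 reads, Hmx2 had 39.0 to 43.3 reads in Dmrt2 knockouts and 8.95 to 10.96 in controls. Foxi1 itself stood at 32.7 to 36.5 CPM in Dmrt2 knockouts and 38.9 to 45.5 CPM in controls, without overlap, as for 7.42% of tested genes in this direction. Hmx2 was higher without overlap in CPM, so the direction of its ratio to Foxi1 was fixed in advance. In CPM, 10.7% of tested genes stood higher in every Dmrt2 knockout than in every control, and no such share was computed for ratios. Dmrt2 had 39.5 to 46.6 reads per 100 Foxi1 reads in libraries labelled triple knockout, against 25.2 to 29.4 in controls. In the Hmx3; Hmx2 line it had 32.1 to 34.6 in knockouts against 28.9 to 31.6 in controls of replicates 1 to 3, and 26.1 to 27.9 in knockouts against 23.0 to 25.1 in controls of replicates 4 to 6. Foxi1 itself averaged 37.6 ± 2.16 CPM in the 6 Hmx3; Hmx2 knockouts and 33.2 ± 2.43 CPM in controls (log2 fold change 0.19, edgeR adjusted p = 0.91), and its part in the Dmrt2 values was not tested.

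Slc26a4, the gene of pendrin, an apical anion exchanger of bicarbonate-secreting cells, gave another picture. Hmx2 had 81.1 to 92.4 reads per 100 Slc26a4 reads in Dmrt2 knockouts and 79.6 to 104.9 in their controls, and these ranges overlapped. Slc26a4 was itself higher in the Dmrt2 knockouts, at 16.3 ± 1.33 CPM against 4.54 ± 1.53 CPM in controls (edgeR adjusted p = 0.016). Relative to Slc4a9, a basolateral anion exchanger gene of the same cells, Hmx2 had 19.0 to 22.3 reads per 100 in Dmrt2 knockouts and 7.39 to 10.2 in controls. Relative to Insrr, a receptor tyrosine kinase gene sensing alkali, it had 37.6 to 43.4 in knockouts and 14.4 to 22.5 in controls. No ratio to Sh2d4b, Slc4a8, Oxgr1 or Spink8, listed for the same cells, was taken. The 7 listed genes of these cells together summed to 152 to 175 CPM in Dmrt2 knockouts and 117 to 129 CPM in controls. Of these 3 were called higher (Slc26a4, Slc4a9, Insrr), against 0.187% of all tested genes, 1 lower (Oxgr1), against 0.257%, and 3 were not called. Their part in the Hmx2 result was not tested. Only 1 of the 7 was called by edgeR in the Hmx3; Hmx2 knockouts, Slc26a4, which fell to 1.47 ± 0.240 CPM, against 3.64 ± 0.647 CPM in controls (SD, n = 6 each; edgeR adjusted p = 4.8e-04), where 0.0157% of all tested genes were called lower.

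The same genes gave mixed values for Dmrt2 in the libraries labelled triple knockout. Slc4a9 averaged 87.5 ± 11.1 CPM in these libraries and 42.2 ± 4.66 CPM in controls (SD, n = 3 each; edgeR adjusted p = 0.0065). Per 100 Slc4a9 reads, Dmrt2 had 19.8 to 23.1 reads in libraries labelled triple knockout and 25.1 to 30.0 in controls. Per 100 Insrr reads it had 44.3 to 49.7 in libraries labelled triple knockout and 53.5 to 72.03 in controls. It was thus lower relative to both, without overlap, and both were themselves called higher there. In CPM, 8.92% of tested genes were lower without overlap in this comparison, and no such share was computed for ratios. Per 100 Slc26a4 reads the ranges overlapped, at 233.4 to 251.5 in libraries labelled triple knockout and 227.5 to 286.7 in controls. Of the 7 listed genes, ratios were taken only to the 3 that edgeR called higher in these libraries. No ratio to Sh2d4b, Slc4a8, Oxgr1 or Spink8 was taken, so the values do not speak for the list as a whole.

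Relative to the type A genes Slc4a1 and Aqp6, Dmrt2 stood higher in the libraries labelled triple knockout. Both were called lower there and Dmrt2 was called higher, so the direction of these ratios was fixed in advance. No ratio to the type A genes Kit, Slc26a7 and Adgrf5 was taken. Slc4a1, the basolateral chloride-bicarbonate exchanger gene of type A cells, also expressed in erythroid cells, stood at 3.74 ± 0.582 CPM in Dmrt2 knockouts and 17.0 ± 1.65 CPM in controls. Of the 5 type A genes, edgeR called 3 lower in Dmrt2 knockouts (Slc4a1, Aqp6 and Kit), against 0.257% of all tested genes, and 2 lower in libraries labelled triple knockout (Slc4a1 and Aqp6), against 0.446%. DESeq2 called 4 (Adgrf5 as well) in the Dmrt2 comparison and 3 (Slc4a1, Aqp6 and Slc26a7) in the triple comparison, against 2.17% and 5.04% of all genes. Both tools called 0 in the Hmx3; Hmx2 comparison, against 0.021% of all tested genes with edgeR and 0.0262% with DESeq2. There 2 (Slc4a1 and Kit) were at an unadjusted p under 0.05, as were 4.93% of all tested genes. In libraries labelled triple knockout Slc4a1 stood at 7.38 ± 1.20 CPM and in their controls at 17.6 ± 2.42 CPM (edgeR adjusted p = 0.0041). Dmrt2 and Slc4a1 were thus both low in Dmrt2 knockouts, whereas in libraries labelled triple knockout Slc4a1 was lower and Dmrt2 higher. Per 100 Slc4a1 reads, Dmrt2 had 235.7 to 296 reads in libraries labelled triple knockout, against 58.6 to 72.8 in controls. With Aqp6, a channel gene of vesicles in type A cells, the counts were 242 to 350 against 53.6 to 88.6. Erythroid genes, 5 in the list, summed to 478 to 820 CPM in libraries labelled triple knockout and 529.9 to 675 CPM in controls. In the Hmx3; Hmx2 line the ratio to Slc4a1 overlapped, at 47.3 to 58.5 in knockouts and 50.6 to 60.2 in controls of replicates 1 to 3, and at 44.0 to 53.3 in knockouts and 38.5 to 50.6 in controls of replicates 4 to 6. Of 12 genes common to intercalated cells, Atp6v1g3, which encodes a subunit of the proton pump, was the only one that edgeR called. It averaged 7.88 ± 0.900 CPM in Dmrt2 knockouts and 13.2 ± 1.19 CPM in controls (adjusted p = 0.015), and 10.7 ± 1.13 CPM in libraries labelled triple knockout and 14.7 ± 1.02 CPM in controls (adjusted p = 0.040). Of all tested genes, 0.257% and 0.446% were called lower in these 2 comparisons. DESeq2 called 3 of the 12 in the Dmrt2 comparison (Atp6v1g3, Rhbg and Car2), 0 in the Hmx3; Hmx2 comparison and 1 (Atp6v1g3) in the triple comparison. An unadjusted p under 0.05 was reached by 6 of the 12 in the Dmrt2 comparison (Foxi1, Atp6v1b1, Atp6v0d2, Atp6v1g3, Rhbg and Car2). It was reached by 5 in the Hmx3; Hmx2 comparison (Foxi1, Atp6v0d2, Atp6v1c2, Atp6v0a4 and Tfcp2l1) and 3 in the triple comparison (Atp6v1b1, Atp6v1g3 and Hepacam2). Of all tested genes, 12.3%, 4.93% and 17.9% reached it. Median log2 fold changes of the 12 were -0.15, 0.11 and -0.09, against medians of all tested genes between -0.01 and 0.00. The 12 summed to 804 to 827 CPM in Dmrt2 knockouts and 881 to 945 CPM in controls, and the sums overlapped in both other comparisons.

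**Figure D4:**
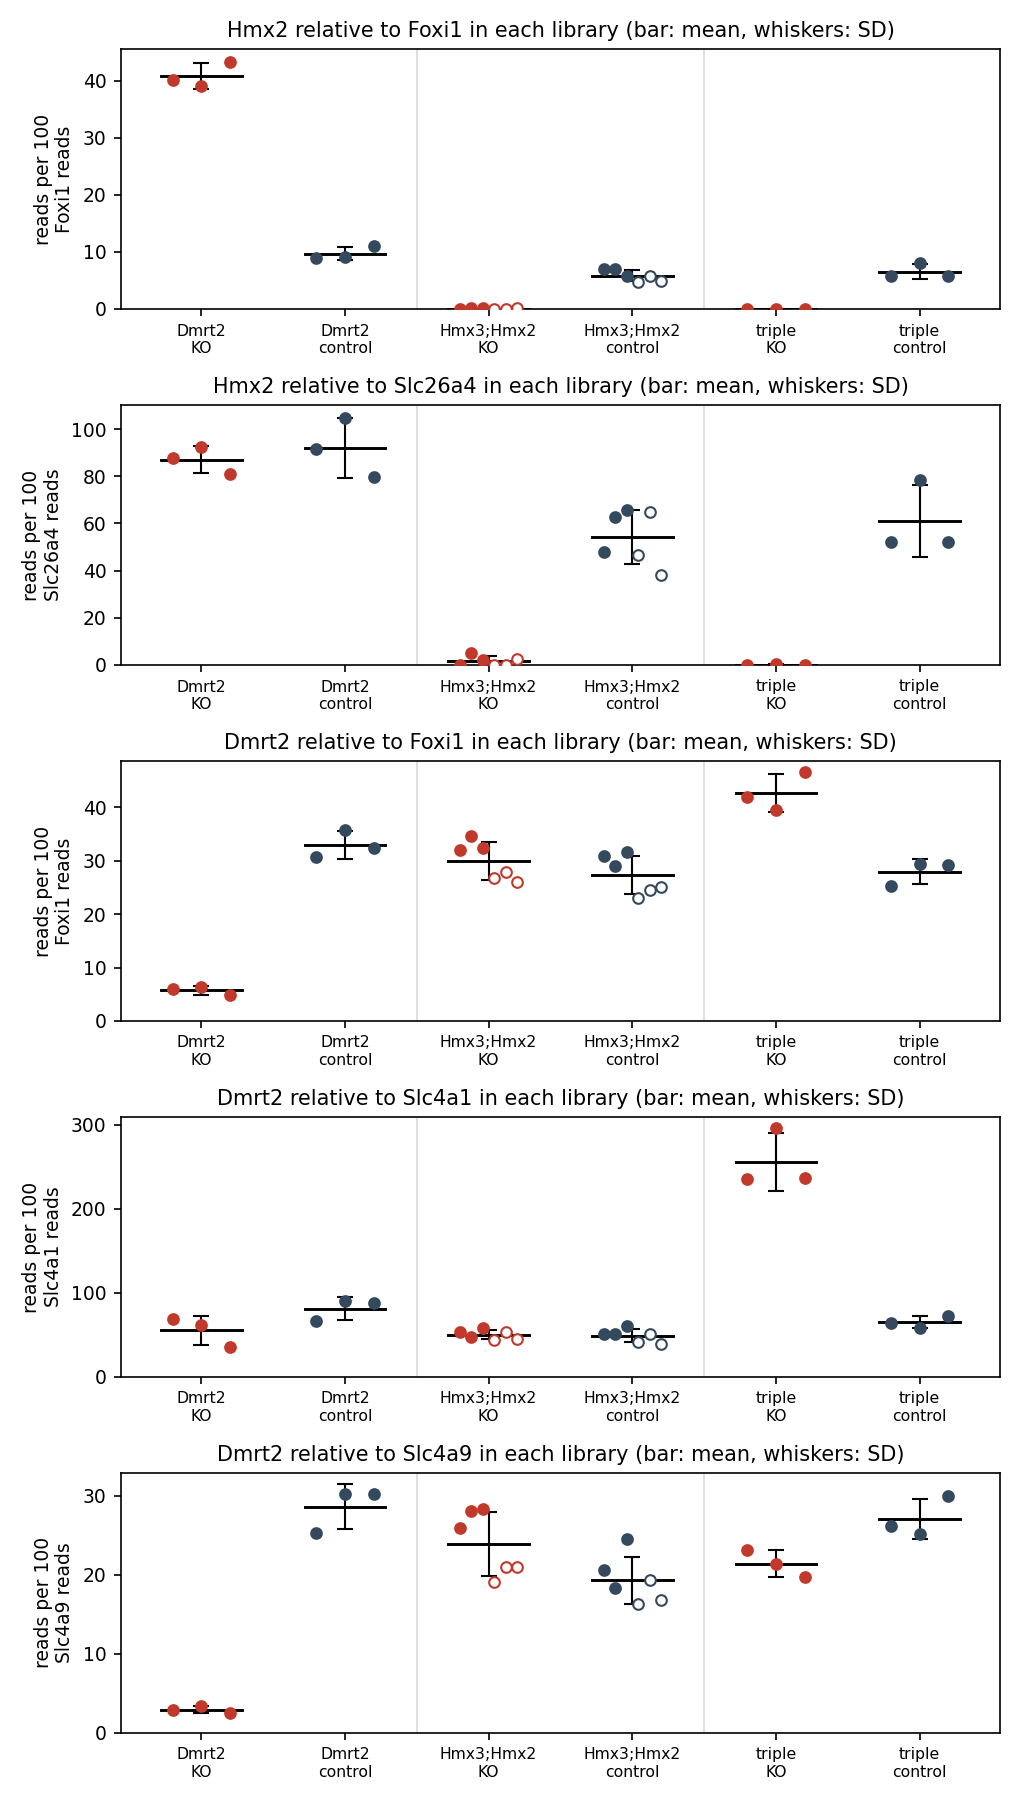
Reads of Hmx2 and Dmrt2 per 100 reads of an intercalated cell gene in each library (points, libraries; open points, replicates 4 to 6 of the Hmx3; Hmx2 line; bars, mean; whiskers, SD). Hmx2 stands at 39.0 to 43.3 per 100 Foxi1 reads in Dmrt2 knockouts and 8.95 to 10.96 in controls, yet at 81.1 to 92.4 and 79.6 to 104.9 per 100 Slc26a4 reads, and Dmrt2 at 235.7 to 296 per 100 Slc4a1 reads in libraries labelled triple knockout and 58.6 to 72.8 in controls, but at 19.8 to 23.1 and 25.1 to 30.0 per 100 Slc4a9 reads.

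The other members of both families were scarce. Of 11 DMRT genes, 4 passed the filter in the Dmrt2 and Hmx3; Hmx2 comparisons and 5 in the triple comparison. Dmrt2, itself a targeted gene, was the only one called in the Dmrt2 and triple comparisons, against 0.444% and 1.03% of all tested genes. With edgeR none was called in the Hmx3; Hmx2 comparison, against 0.021%. Dmrt2 was the 1 gene at an unadjusted p under 0.05 there, and the 1 gene that DESeq2 called. An unadjusted p under 0.05 was reached by Dmrt2 alone in the Dmrt2 comparison. In the triple comparison 2 of 5 reached it (Dmrt2 and Dmrta2), against 17.9% of all tested genes. Dmrta2, the next most counted, averaged 1.95 CPM in Dmrt2 knockouts and 2.54 CPM in controls (log2 fold change -0.39, edgeR adjusted p = 0.43), and 1.34 CPM in libraries labelled triple knockout and 1.87 CPM in controls (-0.51, adjusted p = 0.20). Hmx1, the remaining HMX gene of the list, averaged at most 0.0432 CPM in any group and was not tested.

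Among transcription factors of the collecting duct, a list of 28 including Foxi1, Tfcp2l1, Gata3 and Pax2, none was called with edgeR in any of the 3 comparisons. Of all tested genes, 0.444%, 0.021% and 1.03% were called in the Dmrt2, Hmx3; Hmx2 and triple comparisons. None of 28 is near these shares and says little about the list. An unadjusted p under 0.05 was reached by 9 of 28 in the Dmrt2 comparison, where 12.3% of all tested genes reached it. It was reached by 2 in the Hmx3; Hmx2 comparison (Foxi1 and Tfcp2l1), against 4.93% of all tested genes, and by 3 in the triple comparison (Emx1, Esrrb and Hoxd3), against 17.9%. DESeq2 called 3 of 28 (Klf5, Sall3 and Dach1) in the Dmrt2 comparison, against 2.17% of all genes, 0 in the Hmx3; Hmx2 comparison, and 2 (Emx1 and Esrrb) in the triple comparison, against 5.04%. Median log2 fold changes were -0.03, 0.03 and -0.01 in the Dmrt2, Hmx3; Hmx2 and triple comparisons, against medians of all tested genes between -0.01 and 0.00. Klf5, an epithelial zinc-finger factor, averaged 15.2 CPM in Dmrt2 knockouts and 19.0 CPM in controls (log2 fold change -0.33, edgeR adjusted p = 0.16). Sall3, a spalt-family zinc-finger gene, averaged 26.9 CPM in Dmrt2 knockouts and 20.5 CPM in controls (0.39, adjusted p = 0.19).

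Genes reported downstream of these factors in other mouse tissues were examined as a list of 9. Myf5 and Pax3, muscle and somite regulators, and Ghrh and Gsx1, genes of the hypothalamus, had group means of at most 0.0188 CPM and were not tested. The other 5 (Sox5, Sox6, Bmp4, Dlx5 and Pax2) were tested, and edgeR and DESeq2 each called 0 of 5 in every comparison. Over all tested genes, edgeR called 0.444%, 0.021% and 1.03% in the Dmrt2, Hmx3; Hmx2 and triple comparisons, and DESeq2 2.17%, 0.0262% and 5.04%. A count of 0 of 5 is near these shares. Sox6, a chondrogenic factor gene, had an unadjusted p under 0.05 in the Dmrt2 and Hmx3; Hmx2 comparisons, 1 of 5 in each, against 12.3% and 4.93% of all tested genes, and none of the 5 did in the triple comparison, where 17.9% did. It averaged 31.5 CPM in Dmrt2 knockouts and 26.8 CPM in controls (log2 fold change 0.22, edgeR adjusted p = 0.32), and 33.7 CPM in Hmx3; Hmx2 knockouts and 29.7 CPM in controls (0.19, adjusted p = 0.94).

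The genes whose pattern was most like that of Dmrt2 were sought over the 21 libraries without the Dmrt2 knockouts, by Pearson's r of log2(TMM-scaled CPM + 0.5) relative to controls of the same table, among 15047 genes of at least 1 CPM. The most alike were Hinfp (0.87), Defb36 (0.83), Gpam (0.80), Flnc (0.80) and Cramp1 (0.79), and Slc4a9 (0.78) came eighth. The most opposite were Cyp20a1 (-0.90), Slc22a26 (-0.89), Tram1 (-0.87), Ly6e (-0.87) and Hmx2 (-0.87), which was targeted in 9 of these libraries. Over the 6 libraries of the Dmrt2 line, Hmx2 was most like Clrn1 (0.998), Clasp2 (0.994), Slc26a4 (0.993), Tldc2 (0.992) and Rhbdf2 (0.992). It was most opposite to A730020M07Rik (-0.997), Gm8341 (-0.994), Gm9347 (-0.993), Ptrhd1 (-0.993) and Gm7600 (-0.993). These libraries form a knockout and a control cluster, so r describes that difference and carries no test. Slc26a4 and Tldc2, a TLDc-domain gene, were the 2 of the 5 most alike that were called higher in Dmrt2 knockouts (edgeR adjusted p = 0.016 and 9.9e-07). Among the 5 most opposite, Gm8341, Gm9347 and Gm7600 were called lower there (edgeR adjusted p = 8.1e-06, 5.5e-08 and 0.0023). Of all tested genes, 0.187% were called higher and 0.257% lower. These genes were picked by their pattern in the same libraries, so the calls are no separate support. Tldc2 was called lower in Hmx3; Hmx2 knockouts (log2 fold change -3.47, adjusted p = 1.4e-04) and higher in libraries labelled triple knockout (2.48, adjusted p = 0.0018).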

How the data were processed

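Whole kidney RNA was extracted on RNeasy columns and sequenced after poly(A) selection, per the labels' protocols. The submitters' processing notes list fastp 0.20.1, STAR 2.7.0e, featureCounts 2.0.1 and the build mm39, whereas the file headers name featureCounts 2.0.3. The authors deposited raw counts per gene. Counting used exons of a filtered GENCODE vM29 annotation grouped by gene name, per the file headers, in paired mode but with neither the pair-counting nor the strand option, and left out reads that map to several places or genes. A count is therefore a read, and 87.9% to 94.1% of counts from 1 to 19 were even. Antisense partners are not separated from a gene. 2 columns matched no sample and were not used. No library was a copy of another of its group (24 pairs, chi-square per degree of freedom 5.61 to 29.71).

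CPM use total counts. Tests ran on all genes with edgeR 4.0.16 (R 4.3.3): TMM scaling, the filterByExpr filter (minimum count 10, total 15), the robust quasi-likelihood test with a Benjamini-Hochberg threshold of 0.05. The deposited table was a term in the Hmx3; Hmx2 comparison and in the joint fit of 24 libraries. The SE is the size of a log2 fold change over the square root of its F value, and 95% intervals of fold changes come from it. Hmx3 failed the filter in 2 comparisons, where a fit without it was used. Alternatives were DESeq2 1.42.0, other scalings and filters, halved counts, a replicate block, a Y-linked covariate and leaving out each library. Permutation tests used SciPy 1.17.1, exact or, for the correlation, with 100000 draws. The binomial and Poisson intervals and the floors cover counting error only, and too little of it, as the reads of a pair count separately. The members and gene lists were chosen with earlier results of these data known. By rule, the text names the members, genes of the lists that edgeR called or that bear on a member, and the 5 most alike and most opposite genes. Other list genes that edgeR did not call (such as Klf5, Sall3, Sox6 and Dmrta2) were named after their values had been seen. Promoter stretches are RefSeq's, and GENCODE vM21 (GRCm38) gave the transcripts compared within families.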

Additional observations from a re-analysis of the deposited data

Results flagged for a closer look

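The Dmrt2 effect differed between lines by the test of the difference itself: that of the libraries labelled triple knockout was 3.48 higher on the log2 scale than that of the Dmrt2 knockouts (edgeR adjusted p = 1.5e-14). Dmrt2 was above its controls in 3 of 3 libraries labelled triple knockout and below them in 3 of 3 Dmrt2 knockouts. Hmx3 in replicate 1 of the Hmx3; Hmx2 knockouts, at 0.0642 CPM (4 reads), stood apart from the other 5 knockouts, which had 0 or 1 read each. It was the only case in 8 checks (Dmrt2, Hmx2, Hmx3 and Foxi1 in each of the 2 groups of 6 libraries). By the rule used, chance gives such a case in about 1 of 20 checks, a rate that may not hold for counts this near 0.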

How the results depend on the processing

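Of 364 recomputed values, 334 kept their direction and side of the threshold, and none reversed. Counts of called genes were held to a range of 1.5 times, and the pooled share of Hmx3 to 1 SD of its 3 libraries, a wide margin. The exact permutations of 3 against 3 libraries are among the 364. Their smallest possible p is 0.1, so they could not change side of the threshold. The calls of Dmrt2 and Hmx2 in the Dmrt2 comparison and of Hmx2 in both others held under every alternative that tested them. The filter of a mean of at least 1 CPM left Hmx2 untested in the Hmx3; Hmx2 comparison. Leaving out libraries for the share of Hmx3 (2.54% to 5.82% in Dmrt2 controls) was added after seeing the data. In the Dmrt2 comparison 88 genes were called, against 429 with DESeq2, 676 without a filter, 13 with the Y-linked covariate and 26 (without knockout replicate 2) to 195 (without control replicate 1) with a library left out. It was 53 without control replicate 3. In the Hmx3; Hmx2 comparison 4 were called, against 2 with a mean of at least 1 CPM, 2 in replicates 1 to 3 alone and 2 in replicates 4 to 6 alone. In the triple comparison 222 were called, against 1085 with DESeq2, 1510 without a filter, 573 in the joint fit, 51 with the replicate block and 20 (without knockout replicate 3) to 438 (without control replicate 3) with a library left out, among them 96 without knockout replicate 2, 84 without control replicate 2 and 145 without control replicate 1. The cause was not tested.

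Hmx3 in the Dmrt2 comparison, not called at 2.28, passed with DESeq2 (2.28) and without a filter (2.28), and ran from 1.82 to 3.31 with a library left out, called without control replicate 3. Dmrt2 in Hmx3; Hmx2 knockouts passed with DESeq2 (0.33). In the triple comparison Dmrt2 ran from 0.63 to 0.72 with a library left out, and lost its call without knockout replicate 3 (0.64). Hmx3 ran from -6.78 to -5.98 there, and lost its call with the replicate block (-6.26) and the Y-linked covariate (-6.29). DESeq2 gave it no adjusted p. Replicate numbers did not pair the samples: 3 of 12 same-numbered pairs correlated above 0.1 (-0.158 to 0.169), and 4 of 12 knockouts correlated best with their own number. With the replicate block 80, 5 and 51 genes were called in the Dmrt2, Hmx3; Hmx2 and triple comparisons. A depth of 3 reads as the floor limits every statement on Hmx3.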
